A study of Mus musculus with 22 samples.

Results

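Microglia of male C57BL/6J mice were compared between middle age (50 to 54 weeks, nominally 52 weeks, 5 libraries) and young adulthood (6 to 10 weeks, nominally 8 weeks, 3 libraries). The libraries were chosen by the sex and age in their labels, and they are 8 of the 22 in a series that also holds aged males (96 to 104 weeks, 3 libraries) and females of the same 3 ages. All libraries carry SPF in their titles, the labels give no treatment to any group, and the cells were sorted from whole brain as CD11b+CD45lowLin- cells, that is, myeloid cells with little surface CD45 and without the markers of other blood lineages. RNA was amplified from picogram amounts before sequencing, and the labels do not say whether a library came from 1 animal or from several, so a p-value reflects how libraries vary, which may be technical. Libraries are named below by group and replicate number (young adults 2, 3 and 4; middle-aged 1 to 5).

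Microglia are the resident macrophages of the brain. In young animals they carry a homeostatic programme of surveillance receptors such as P2ry12 and Cx3cr1. In older or injured brains, subsets of them turn on an interferon programme, a disease-associated programme with genes for lipid handling and phagocytosis, antigen presentation, or the cell cycle. The borders and vessels of the brain hold related macrophages and blood cells that a sort can take along, so markers of those cells were followed as well.

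Depth was 20.6 to 26.4 M reads in the young adult males and 24.3 to 34.1 M in the middle-aged males. The 10 defining microglial markers summed to 1371100 to 1738100 normalized counts in each of the 8 libraries, and a normalized count is a read count divided by a factor for the depth of its library. Of 10 neutrophil genes with values, Ltf, Lcn2, Elane, Retnlg and Mmp9 were at 0 in all 8, as were the monocyte genes Chil3 and Hp. Other neutrophil genes had reads, and that list summed to 7317 to 8055 in the young adults and 7501 to 9901 in the middle-aged. The monocyte list summed to 6.65 to 152 and 0 to 95.1. Choroid plexus markers varied by library, with a sum of 5107 in young adult 2, under 3.13 in the other young adults and 22.5 to 3457 in the middle-aged libraries. The sums of 3 other lists did not overlap between the ages. Oligodendrocyte precursor markers summed to 5.90 to 12.5 in the young adults and 18.2 to 48.3 in the middle-aged. Oligodendrocyte markers summed to 3368 to 3787 and 3823 to 4469, and B cell markers to 972 to 1166 and 657 to 792. Of the 7 oligodendrocyte genes tested, only 2 had a log2 fold change above 0, with a median of -0.30, although the sum was higher. Astrocyte genes leaned up (7 of 8 above 0, median 1.17), as did choroid plexus genes (5 of 5, median 2.82). Border-associated macrophage genes leaned down (2 of 6 above 0, median -0.60). The remaining lists with more than 1 gene tested had medians from -0.04 to 0.35. No tested gene of any list of other cell types passed, and the part of such cells in the results was not tested. In fits without 1 library, at most 1 such gene passed, of the choroid plexus list. After the filter on low values, the T and NK cell and the mast cell lists had 0 genes tested. The B cell, erythroid and oligodendrocyte precursor lists had 1 each.

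Of 12552 genes tested, 171 (1.36%) were higher and 51 (0.406%) lower in middle-aged than in young adult males at an adjusted p under 0.05 (limma, Benjamini-Hochberg over all genes tested), 222 (1.77%) together. Fitted changes were at least 2-fold for 109 of the genes that rose and for 8 of those that fell. The 5 and the 3 libraries did not overlap in 157 of the 171 and in 41 of the 51. Over all genes, 593 (4.72%) had every middle-aged library above every young adult one and 367 (2.92%) had the reverse, 960 (7.65%) together. The first principal component of the 8 libraries held 22.9% of the variance and separated the ages, with young adults from -48.7 to -37.4 and middle-aged from 11.3 to 36.5. Of the 222 genes, 60 passed in each of 20 other settings (52 higher, 8 lower), and these settings include 8 fits without 1 library each.

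The largest rise was in Kcnj12, which encodes the inwardly rectifying potassium channel Kir2.2 and lies on chromosome 11 from 61022564 to 61071131 (mm10). Its normalized counts were 0, 13.5 and 10.8 in the young adults and 425, 334, 314, 372 and 464 in the middle-aged males. Every middle-aged library lay far above the highest young adult one, and the log2 fold change was 6.09 ± 0.56 (limma adjusted p = 3.3e-07, n = 3 and 5). Here and below, ± gives the standard error of the fit. Its estimate of the spread is shared by all 22 libraries and is not that of the 2 groups alone. Aged males stood at 601, 481 and 723. Dlg5, a scaffold protein of cell polarity (chromosome 14, 24133953 to 24245920), had 6 reads in the 3 young adult libraries together and 1188 in the 5 middle-aged ones. Its normalized counts were 2.53, 1.04 and 1.66 against 131, 237, 173, 247 and 64.0, with a limma adjusted p of 8.4e-06, and no fold is given because each young adult library had 3 reads or fewer. Ildr2, an immunoglobulin-like receptor related to the B7 family (chromosome 1, 166254139 to 166316823), had 46.4, 77.0 and 121 normalized counts in young adults. In the middle-aged it had 1216, 1276, 1028, 1189 and 963, a log2 fold change of 3.88 ± 0.37 (limma adjusted p = 4.0e-07). These 3 genes were low in each young adult library and high in each middle-aged one, with no value in between.

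**Figure D1:**
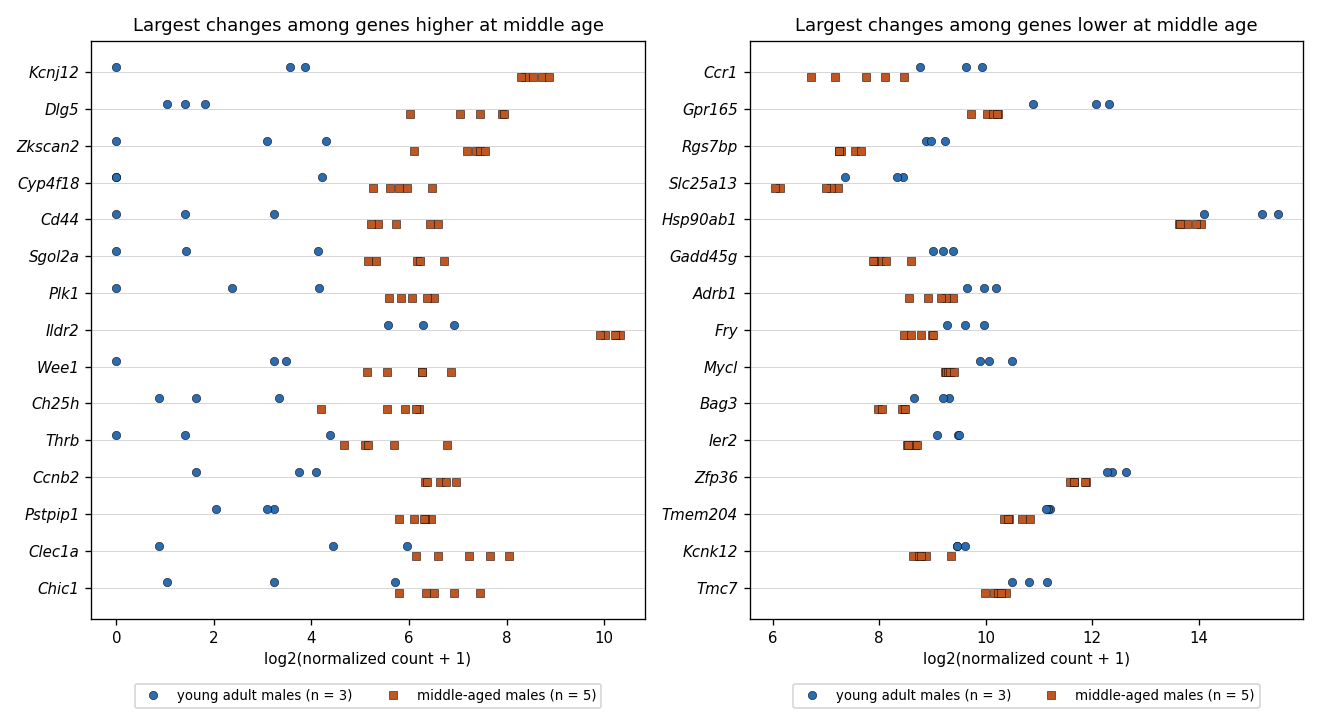
Normalized counts as log2(value + 1) on the x axis for the 15 genes with the largest rise (left) and the 15 with the largest fall (right) among called genes with a mean of at least 50 and no overlap, 1 point per library, circles for the 3 young adult and squares for the 5 middle-aged males. No gene has overlapping groups, since the choice of genes required it; the distance between groups is widest in Kcnj12 and Dlg5, and Hsp90ab1 has 1 young adult library beside the middle-aged ones.

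Cd44, the hyaluronan receptor of migrating leukocytes, had 0, 8.33 and 1.66 normalized counts in young adults and 36.3 to 95.1 in the middle-aged (log2 fold change 4.32 ± 0.69, limma adjusted p = 0.00055). Pstpip1, an adaptor that binds pyrin, rose from 3.12 to 8.43 to between 54.9 and 86.3 (3.41 ± 0.44, limma adjusted p = 4.3e-05). Zkscan2, a zinc finger protein, was at 0, 18.7 and 7.49 in young adults and at 68.1 to 188 in middle age (4.68 ± 0.85, limma adjusted p = 0.0023). Cyp4f18, a cytochrome P450 that inactivates leukotriene B4, had 0, 17.7 and 0 against 37.2 to 87.1 (4.40 ± 0.68, limma adjusted p = 0.00046). The calls of Cd44, Pstpip1 and Zkscan2 held in every setting tried, and that of Cyp4f18 was lost only where the fit held the 2 groups alone (adjusted p = 0.0659). Ch25h, which makes the oxysterol 25-hydroxycholesterol, had 0.843, 2.08 and 9.15 against 72.5, 70.1, 59.1, 46.0 and 17.3 (3.65 ± 0.83, limma adjusted p = 0.018). Its call was lost without young adult 2 (adjusted p = 0.137) or young adult 3 (0.0976). The thyroid hormone receptor gene Thrb rose by 3.55 on the log2 scale (limma adjusted p = 0.014), and its young adult values were 0, 19.8 and 1.66. Its call was lost without young adult 2 (adjusted p = 0.163) or young adult 4 (0.0597). The C-type lectin gene Clec1a had a log2 fold change of 3.37 (limma adjusted p = 0.018; 0.21 without young adult 2), and Chic1 3.28 (0.031; lost in 5 of the 8 fits without 1 library, up to 0.293 without young adult 3).

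A further 8 genes, of immune surface proteins, cell adhesion, a peptidase and a glycan enzyme, were chosen after their values were seen, from those that passed in every setting. Pdcd1, the gene of the checkpoint receptor PD-1, had 121, 89.5 and 145 normalized counts in young adults and 605, 514, 534, 963 and 356 in the middle-aged (log2 fold change 2.27 ± 0.25, limma adjusted p = 5.6e-06). Cd22, an inhibitory receptor for sialic acid, went from 227, 211 and 299 to between 522 and 840 (1.56 ± 0.17, limma adjusted p = 4.6e-06). The middle-aged values of both genes lay wholly above the young adult ones. Tnfsf8, the ligand of CD30, rose from 35.4 to 48.9 to between 171 and 308 (2.43 ± 0.28, limma adjusted p = 8.4e-06), and Ly9, a receptor of the SLAM family, from 666 to 858 to between 1376 and 1743 (1.09 ± 0.14, limma adjusted p = 3.1e-05). Vcam1, an adhesion molecule bound by leukocyte integrins, rose by 1.49 ± 0.28 (limma adjusted p = 0.0042). Afdn, a linker of cell junctions to actin, rose by 2.29 ± 0.20, Naalad2, a glutamate carboxypeptidase, by 1.89 ± 0.17 and Gcnt2, the enzyme of I-branching of glycans, by 1.44 ± 0.14 (limma adjusted p of 1.5e-07, 3.3e-07 and 4.0e-07).

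The interferon response is the set of antiviral genes that cells turn on when type I interferon binds its receptor. Of 33 members tested, 6 rose and none fell, beside 1.36% of all genes rising, and 25 had an unadjusted p under 0.05 (11.6% over all genes). The median log2 fold change of the list was 1.13, beside 0.0019 over all genes tested. Zbp1, a sensor of Z-form nucleic acids, had 32.0, 30.2 and 25.8 normalized counts in young adults and 112, 151, 325, 214 and 92.5 in the middle-aged. All 5 were above all 3, and the log2 fold change was 2.42 ± 0.44 (limma adjusted p = 0.0022; at most 0.0147 in the 8 fits without 1 library). Rsad2, the antiviral enzyme viperin, had 32.9, 35.4 and 16.6 against 53.6, 116, 559, 155 and 113 (2.38 ± 0.58, limma adjusted p = 0.03). Oasl2, of the oligoadenylate synthetase family, had 142, 127 and 49.9 against 170, 343, 1537, 767 and 322 (2.26 ± 0.55, limma adjusted p = 0.031). Both genes were highest in middle-aged 3, and their lowest middle-aged value was in middle-aged 1. Ifi27l2a, an interferon-induced membrane protein, rose by 1.82 ± 0.45 (limma adjusted p = 0.033) and Ifit3, of the family that binds viral RNA ends, by 1.46 ± 0.37 (0.042). Ifit3 overlapped between the ages, with 127, 314 and 138 against 307, 387, 1323, 528 and 338. Oas3 was at 0 reads in each young adult library and had 207 reads over the middle-aged ones, where its normalized counts were 4.35, 11.6, 79.9, 15.8 and 52.8 (limma adjusted p = 0.0495; up to 0.152 without young adult 3). Rsad2, Oasl2, Ifi27l2a and Ifit3 each lost their call in 5 of the 8 fits without 1 library, and Oas3 in 7. Without young adult 2, middle-aged 3 or middle-aged 4 only 1 member of the list passed, and without middle-aged 1 there were 11. With the 2 groups alone in the fit, Zbp1 kept its call (adjusted p = 0.0284). Rsad2, Oasl2, Ifi27l2a, Ifit3 and Oas3 lost theirs there (0.166, 0.19, 0.237, 0.256 and 0.0522).

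**Figure D2:**
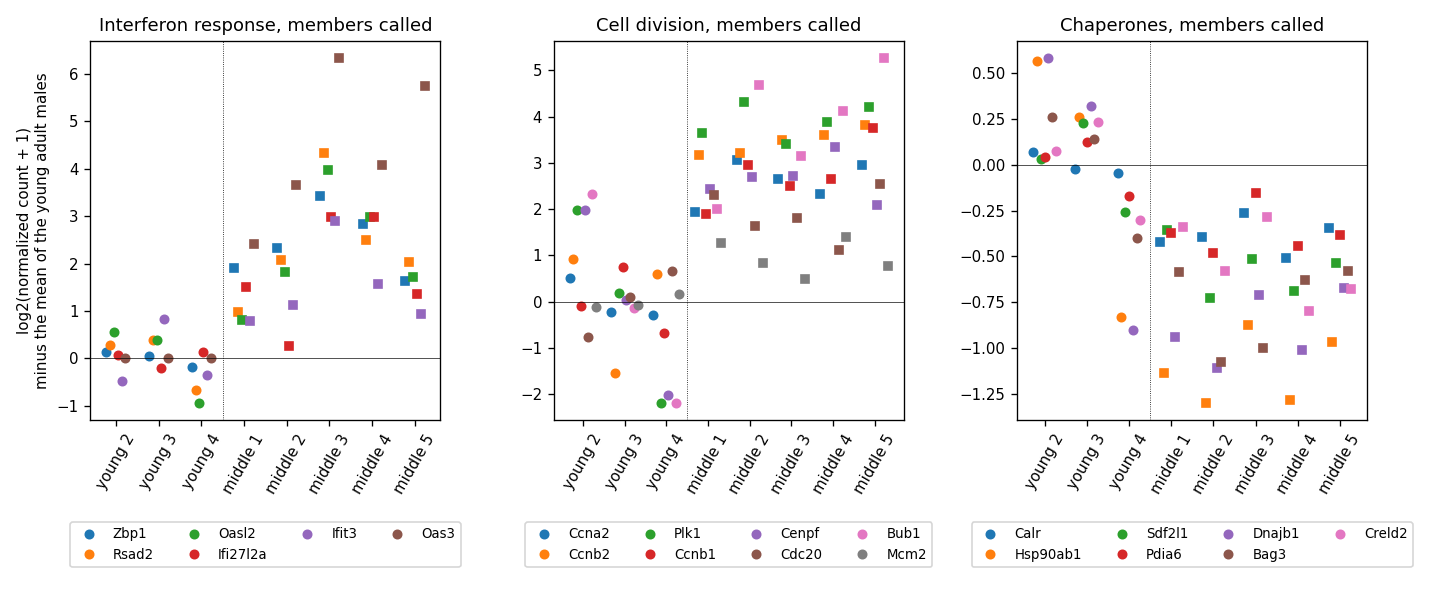
The members called in the interferon, cell division and chaperone lists, each library's log2(normalized count + 1) minus the mean of the 3 young adult males (y axis) by library (x axis), circles for young adult and squares for middle-aged males. Interferon genes are highest in middle-aged 3 except Ifi27l2a, cell division genes are above 0 in all 5 middle-aged libraries, and Hsp90ab1 and Dnajb1 of young adult 4 lie near the middle-aged values.

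Promoters are shown for the interferon genes and, below, for the chaperone genes, because members of each list moved in 1 direction and each list has a known response element. The sequences are from RefSeq (GRCm38.p6, the same assembly as mm10), read in the direction of transcription, and their table covers 250 bases before to 50 after each start. Here and below, only the window of 250 bases before the start was searched, and every presence, absence and share refers to it. The interferon-stimulated response element was searched on both strands as GAAA, any 2 bases and GAAA again. It was found in 3 of the 4 called members with an entry and in 2.98% of the 32851 promoters in the table (3.37% of the genes tested that have one). The stretches lie at chr12:26456543-26456592 (minus strand) for Rsad2, at chr19:34583353-34583436 (plus strand) for Ifit3 and at chr5:120777705-120777754 (minus strand) for Oas3, and capitals mark each match, on either strand.
Rsad2: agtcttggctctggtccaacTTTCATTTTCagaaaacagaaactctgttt
Ifit3: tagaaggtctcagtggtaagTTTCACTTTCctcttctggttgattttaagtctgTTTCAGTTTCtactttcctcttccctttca
Oas3: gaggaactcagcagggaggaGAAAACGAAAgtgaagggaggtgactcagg
Ifit3 holds 2 matches, and these letters are not in the window of Oasl2. Zbp1 and Ifi27l2a have no entry in the table. A match describes the sequence and is not a measured binding site. Uncalled members of the lists were not searched separately, here or below. The shares therefore cannot tell called from uncalled members of a list.

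In the proliferation list all 36 tested members had log2 fold changes above 0, with a median of 1.55. The list holds cyclins, mitotic kinases and replication factors, which are low in resting microglia. Of the 36, 8 passed, all higher, beside 1.36% of all genes, and 25 had an unadjusted p under 0.05, beside 11.6%. Ccna2, the cyclin of S and G2 phase, had 33.7, 19.8 and 19.1 normalized counts in young adults and 92.1, 203, 153, 122 and 188 in the middle-aged (2.59 ± 0.41, limma adjusted p = 0.00055). Ccnb2, a mitotic cyclin, had 16.0, 2.08 and 12.5 against 79.7, 81.1, 99.0, 108 and 125 (3.46 ± 0.57, limma adjusted p = 0.00082). Ccnb1, another mitotic cyclin, had 4.22, 8.33 and 2.5 against 19.6 to 73.5 (2.75 ± 0.54, limma adjusted p = 0.0051). The 3 cyclins did not overlap between the ages and passed in every setting tried. The mitotic kinase gene Plk1 was at 16.9, 4.16 and 0 against 47.1 to 89.6 (3.90 ± 0.75, limma adjusted p = 0.0045; 0.0596 with the 2 groups alone in the fit). Cdc20, the activator of the anaphase-promoting complex, rose by 1.88 ± 0.40 (limma adjusted p = 0.01; 0.116 without young adult 2), and the centromere protein gene Cenpf by 2.66 ± 0.55 (0.0084; 0.0755 without young adult 4). The spindle checkpoint kinase gene Bub1 overlapped between the ages (21.9, 3.12 and 0 against 17.4 to 175) and had a limma adjusted p of 0.014, lost without young adult 3 (0.0711) or young adult 4 (0.116). The replication helicase gene Mcm2 was at the threshold (0.96 ± 0.25, limma adjusted p = 0.048) and lost its call in 7 of the 8 fits without 1 library (up to 0.187 without young adult 2). Wee1, the kinase that holds back mitosis, and Sgol2a, a guardian of centromeric cohesion, are outside the list and also passed (limma adjusted p of 0.038 and 0.044), but they lost their calls in 6 and 7 of the 8 fits (up to 0.228 and 0.212, both without young adult 4). Top2a, the topoisomerase of dividing cells, did not pass, with 70.0, 72.9 and 22.5 against 125, 538, 145, 276 and 281 (2.26 ± 0.85, limma adjusted p = 0.24). Without 1 library, 6 to 10 members of the list passed. With the 2 groups alone in the fit 6 passed, but of the 8 called members only the 3 cyclins kept their calls. Cdc20, Mcm2, Bub1 and Cenpf lost theirs there, as Plk1 did (adjusted p of 0.0894, 0.0995, 0.153 and 0.1685 for the first 4). Bub1 and Cenpf also lost their calls with edgeR. In bulk libraries, more cells in cycle and more of these transcripts per cell cannot be told apart. The letters TTTGAA, a cell cycle element, searched on both strands, were in 3 of the 7 promoters on file for the called members (Ccnb2, Cdc20 and Mcm2), beside 12.5% of the genes tested that have a promoter entry.

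The disease-associated programme was described first in microglia around amyloid plaques, and it joins receptors, lysosomal inhibitors and lipid genes. Of 30 members tested, 7 rose and none fell, beside 1.36% of all genes rising, 14 had an unadjusted p under 0.05, beside 11.6% of all genes, and the median log2 fold change was 0.35. Cst7, the gene of the protease inhibitor cystatin F, had 255, 336 and 148 normalized counts in young adults and 644, 548, 659, 512 and 485 in the middle-aged (1.27 ± 0.22, limma adjusted p = 0.0014; 0.051 with the 2 groups alone in the fit). Clec7a, the beta-glucan receptor dectin-1, had 612, 542 and 589 against 980, 1019, 1843, 1251 and 985 (1.02 ± 0.23, limma adjusted p = 0.015; lost without young adult 2, 0.0551, or young adult 3, 0.088). Cd9, a tetraspanin, had 25779, 25982 and 29443 against 37543 to 43108 (0.55 ± 0.09, limma adjusted p = 0.00047), and it passed in every setting tried. The young adult values of these 3 genes all lay below the middle-aged ones. Lyz2, the lysozyme of macrophages, rose by 0.81 ± 0.17 (limma adjusted p = 0.0089; 0.0576 without young adult 4). Axl, a receptor for phosphatidylserine through its ligand Gas6, had 259, 300 and 334 against 631, 587, 1801, 1491 and 530 (1.57 ± 0.36, limma adjusted p = 0.018; lost in 3 of the 8 fits, up to 0.102 without young adult 2). Cybb, the catalytic subunit of the phagocyte NADPH oxidase, rose by 2.39 ± 0.61 (limma adjusted p = 0.042; lost in 7 of the 8 fits, up to 0.175 without young adult 4), and Ch25h, described above, is the remaining member called. Apoe, the main lipid carrier of the list, did not differ beyond the spread of libraries, with 8886, 13348 and 6805 against 9003, 7373, 10748, 8824 and 7572 (-0.11 ± 0.31, limma adjusted p = 0.96). In aged males it was at 42842, 21846 and 19443. Lpl, the lipoprotein lipase (-0.06 ± 0.29), Itgax, the integrin CD11c (0.35 ± 0.34), and Spp1, the secreted protein osteopontin (limma adjusted p = 0.51), did not pass either. Without young adult 2 or young adult 3 the list had 3 members called, as it did with the 2 groups alone in the fit.

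**Figure D3:**
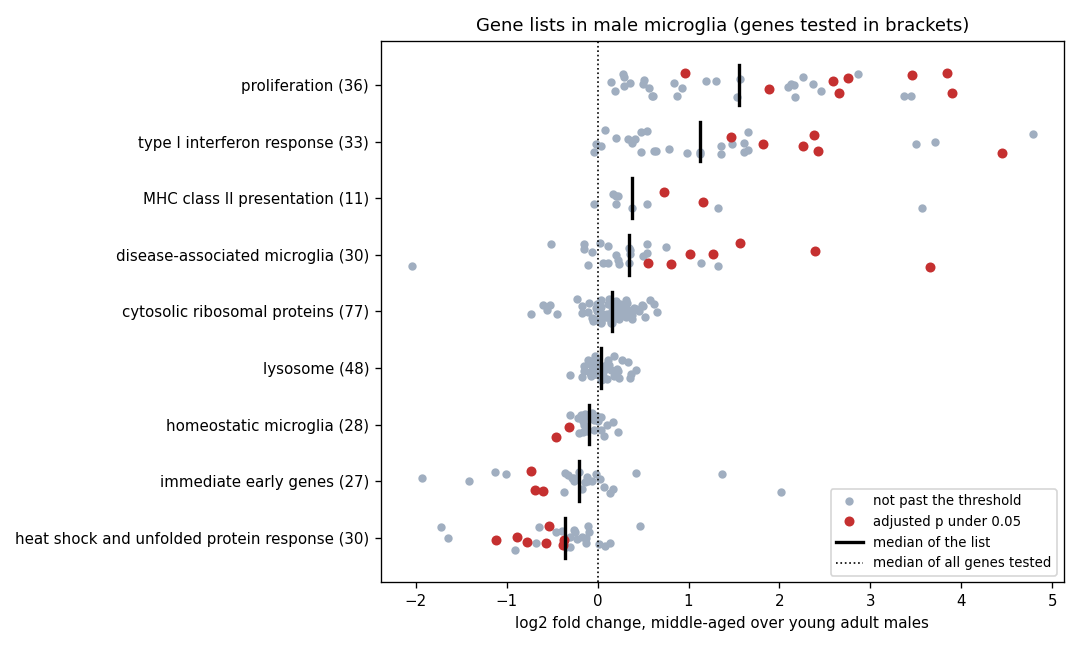
Log2 fold change of middle-aged over young adult males (x axis) for every tested member of 9 gene lists (y axis, number tested in brackets), red where the adjusted p is under 0.05, with a bar at each list's median and a dotted line at the median of all genes tested. The medians run from 1.55 for proliferation to -0.35 for heat shock and the unfolded protein response, and no member of the lysosome or ribosomal protein lists passed.

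Chaperone genes were among those that fell. Of 30 members of the heat shock and unfolded protein lists, 7 fell and none rose, beside 0.406% of all genes falling. Of the 30, 18 had an unadjusted p under 0.05 (11.6% over all genes), and the median log2 fold change was -0.35. Calr, the lectin chaperone calreticulin of the endoplasmic reticulum, had 28726, 26915 and 26531 normalized counts in young adults and 20443, 20825, 22811, 19252 and 21564 in the middle-aged. The groups lay apart, and the fall was narrow and steady (-0.39 ± 0.06, limma adjusted p = 0.00048; at most 0.0493 in every setting tried). Sdf2l1, a partner of the chaperone BiP, had 5357, 6135 and 4385 against 3164 to 4100 (-0.56 ± 0.10, limma adjusted p = 0.0016; 0.0774 with the 2 groups alone). Pdia6, a protein disulfide isomerase, had 18358, 19439 and 15856 against 13778, 12780, 16033, 13102 and 13655 (-0.37 ± 0.08, limma adjusted p = 0.016; lost without young adult 2, 0.0935, or young adult 3, 0.145). Creld2, another endoplasmic reticulum protein, was at the threshold (-0.54 ± 0.14, limma adjusted p = 0.046; lost in 5 of the 8 fits, up to 0.283 without young adult 3). Hsp90ab1, the constitutive cytosolic Hsp90 (chromosome 17, 45567775 to 45573271), had 46084, 37267 and 17514 in young adults and 14145, 12638, 16940, 12792 and 15899 in the middle-aged (-1.11 ± 0.18, limma adjusted p = 0.00083; 0.109 with the 2 groups alone). Young adult 2 and 3 were high, while young adult 4 was just above the middle-aged range. The Hsp70 partners Dnajb1 and Bag3 moved with it. Dnajb1 had 4725, 3939 and 1690 against 1465 to 1984 (-0.89 ± 0.21, limma adjusted p = 0.02; lost in 4 of the 8 fits, up to 0.238 without young adult 2), and Bag3 had 637, 586 and 403 against 252 to 356 (-0.77 ± 0.20, 0.041; lost in 5 of the 8, up to 0.247 without young adult 2). The number of members called ran from 3 without young adult 2 or without young adult 3 to 13 without young adult 4, and was 1 with the 2 groups alone in the fit.

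The endoplasmic reticulum stress response element, bound by ATF6 together with NF-Y, was searched on both strands as CCAAT, any 9 bases and CCACG. It was in 3 of the 4 called chaperones of that compartment, beside 0.113% of all promoters in the table and 0.154% of the genes tested. The stretches lie at chr8:84847055-84847113 (minus strand) for Calr, chr12:17266471-17266529 (plus strand) for Pdia6 and chr15:88819500-88819558 (plus strand) for Creld2, and capitals mark the match, on either strand.
Calr: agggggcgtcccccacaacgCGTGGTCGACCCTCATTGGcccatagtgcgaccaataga
Pdia6: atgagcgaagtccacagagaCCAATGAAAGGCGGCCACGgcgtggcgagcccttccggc
Creld2: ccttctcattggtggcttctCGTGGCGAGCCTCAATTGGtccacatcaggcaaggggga
These letters are not in the window of Sdf2l1. The heat shock element (GAA and TTC by turns, 3 units each 2 bases from the next, on both strands) was in neither of the promoters on file for Dnajb1 and Bag3, beside 0.466% of all promoters, and Hsp90ab1 has no entry.

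Immediate early genes are induced within minutes of a stimulus. Of 27 tested, 3 fell and none rose, beside 0.406% of all genes falling, and 8 had an unadjusted p under 0.05 (11.6% over all genes). The list median was -0.21. Zfp36, the mRNA-destabilising protein tristetraprolin, had 6324, 5318 and 4958 normalized counts in young adults and 3797, 3248, 3085, 3230 and 3730 in the middle-aged (-0.69 ± 0.11, limma adjusted p = 0.00083), and it passed in every setting. Aged males were lower still in level, at 1461, 1557 and 2027. Junb, a subunit of AP-1, had 5740, 5352 and 5414 against 3255 to 4104 (-0.60 ± 0.12, limma adjusted p = 0.0076; 0.0589 without young adult 2). Ier2 had 710, 545 and 725 against 367 to 417 (-0.73 ± 0.19, limma adjusted p = 0.047), and its call was lost in all 8 fits without 1 library (0.0552 to 0.208).

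The largest falls among called genes with a mean of at least 50 and no overlap were those of Ccr1, Gpr165 and Rgs7bp. A further 2 called genes, with means below 50, had larger fitted changes: Tfec, a transcription factor of the MITF family, with 5.82 to 46.4 normalized counts in young adults and 0 to 2.17 in the middle-aged (limma adjusted p = 0.0495), and Pde6g, a phosphodiesterase subunit, with 10.4 to 11.0 in young adults and 0 in each middle-aged library (0.0339). They were named after their values were seen. Ccr1, a receptor for CCL3 and CCL5 (chromosome 9, 123962124 to 123968692), had 433, 791 and 973 normalized counts in young adults and 275, 104, 352, 143 and 215 in the middle-aged (-1.80 ± 0.41, limma adjusted p = 0.02). It lost its call in 4 of the 8 fits, without middle-aged 2 or 4 (0.0591 and 0.0597) or young adult 3 or 4 (0.114 and 0.102). Gpr165, an orphan G protein-coupled receptor (chromosome X, 96713441 to 96719388), had 4320, 1889 and 5097 against 845, 1037, 1127, 1210 and 1192 (-1.69 ± 0.23, limma adjusted p = 7.9e-05). Rgs7bp, the membrane anchor of RGS proteins that end G protein signals, had 470, 505 and 603 against 150 to 202 (-1.63 ± 0.26, limma adjusted p = 0.00055). Gpr165 and Rgs7bp held in every setting, and no middle-aged library reached a young adult value in either. Gadd45g, a growth arrest gene, fell by 1.09 on the log2 scale (limma adjusted p = 0.005; 0.0579 without young adult 2), the transcription factor gene Mycl fell by 0.84 (0.0058; 0.0874 without young adult 3), and Tmem204 fell by 0.63 (0.0073; 0.0516 without young adult 2). Slc25a13, the mitochondrial aspartate-glutamate carrier citrin, Fry, Tmc7 and the tandem pore potassium channel gene Kcnk12 had limma adjusted p-values of 0.042, 0.047, 0.025 and 0.0495, with calls lost in 4 to 7 of the 8 fits (up to 0.239, 0.297, 0.247 and 0.146).

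Of 28 members of the homeostatic programme, 2 fell and none rose, beside 0.406% of all genes falling, and 9 had an unadjusted p under 0.05 (11.6% over all genes). The list median was -0.09. Fcrls, an Fc receptor-like scavenger receptor of mouse microglia, had 105400 to 124740 normalized counts in young adults and 74623 to 98989 in the middle-aged (-0.45 ± 0.08, limma adjusted p = 0.002), and the secreted matrix protein gene Sparc fell from 134470 to 143400 to between 99280 and 124080 (-0.32 ± 0.07, 0.0098; 0.0735 without young adult 3). With the 2 groups alone in the fit neither passed (adjusted p of 0.127 and 0.208). P2ry12, the ADP receptor of process extension (0.00 ± 0.09), Tmem119 (-0.18 ± 0.08), the fractalkine receptor Cx3cr1 (-0.15 ± 0.08) and the transcription factor Sall1 (-0.04 ± 0.09) did not pass (limma adjusted p of 1, 0.34, 0.53 and 0.96).

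Of 11 members of the MHC class II list, which present antigen to T cells, 2 rose, beside 1.36% of all genes, and 6 had an unadjusted p under 0.05 (11.6% over all genes). The 2 were the class II chain gene H2-Ab1, with 184, 212 and 198 against 324 to 571 (1.16 ± 0.28, limma adjusted p = 0.028), and Cd74, the invariant chain, with 691, 790 and 814 against 1003 to 1646 (0.73 ± 0.19, 0.049). Neither overlapped between the ages, but H2-Ab1 lost its call in 5 and Cd74 in 6 of the 8 fits without 1 library (up to 0.122 and 0.218, both without young adult 2). H2-Aa had 1.69, 38.5 and 9.98 against 97.4 to 178 and did not pass (limma adjusted p = 0.068). It did pass without young adult 3 (0.0441) and with a pseudocount of 8 (0.0247). No class I gene passed of 14, H2-D1 included (0.54 ± 0.17, limma adjusted p = 0.12). Among 26 cytokines and chemokines only Tnfsf13b, the B cell survival factor BAFF, rose, beside 1.36% of all genes. It went from 417, 464 and 386 to 1249, 1118, 1095, 1371 and 976 (1.45 ± 0.17, limma adjusted p = 1.5e-05). That step held in every setting, and all 5 middle-aged values lay above the young adult ones. Il1b (1.10 ± 0.32, limma adjusted p = 0.091) and Tnf (0.40 ± 0.85, 0.94) did not pass. The middle-aged Il1b values all lay above the young adult ones, and Il1b passed with DESeq2 on the recovered reads (adjusted p = 0.0289). In the NF-kB list of 28 the costimulatory receptor gene Cd40 alone rose, beside 1.36% of all genes (3.35 ± 0.79, limma adjusted p = 0.023). Its call was lost in 5 of the 8 fits, up to 0.145 without young adult 4.

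Several lists of 16 to 33 genes tested had 1 member called in a direction, beside 1.36% of all genes rising and 0.406% falling. A single call says little of a list. S1pr1, a sphingosine-1-phosphate receptor, rose by 0.66 (limma adjusted p = 0.011; lost without young adult 2, 0.0588, or young adult 3, 0.105), and the hypoxia factor gene Hif1a by 0.53 (0.016; lost in 3 of the 8 fits, up to 0.151 without young adult 3). Plaur, the urokinase receptor, rose by 0.66 (limma adjusted p = 0.038; lost in 7 of the 8, up to 0.253) and the glycolytic regulator Pfkfb3 by 0.52 (0.031; lost in 4, up to 0.296). Hfe, a partner of the transferrin receptor in iron sensing, had 6514, 7074 and 6370 against 4828 to 5428 and fell in every setting (-0.38 ± 0.07, limma adjusted p = 0.0037). The collagen hydroxylase gene P4ha1 was at the threshold (-0.53 ± 0.14, limma adjusted p = 0.0495; lost in 6 of the 8, up to 0.347 without young adult 2). No member passed among 48 lysosomal, 71 oxidative phosphorylation, 77 cytosolic ribosomal protein, 35 splicing, 19 clock and 17 complement genes. Of these, 10, 3, 3, 1, 4 and 1 had an unadjusted p under 0.05, beside 11.6% of all genes. Cdkn1a, the cell cycle inhibitor p21, had a limma adjusted p of 0.36.

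Middle-aged and young adult females served as a second pair of groups that shares no library with the males. Both steps use the same estimate of each gene's spread, so the calls in the 2 sexes are not independent. In females 745 genes (5.94%) were higher and 444 (3.54%) lower at middle age in the same fit. Of the 171 genes higher in males, 160 had the same sign in females and 103 passed there too, which is 60.2% of the male and 13.8% of the female genes. Of the 51 lower in males, 43 had the same sign and 14 passed in that direction (27.5% of the male and 3.15% of the female genes), while 2 passed in the opposite direction. Kcnj12, Ildr2 and Tnfsf13b rose in females by 4.82, 3.83 and 1.35 on the log2 scale (limma adjusted p of 5.4e-06, 2.5e-07 and 2.7e-05), and Gpr165 fell by 2.17 (1.3e-06). The interferon list had 2 members higher in females, Ifih1 and Cxcl10, and a median of 0.36. Of the male interferon members called none passed in females, with log2 fold changes of 1.10 for Zbp1, 1.18 for Rsad2 and 0.69 for Oasl2, but no interferon gene had a step that differed between the sexes by the test of the difference. The chaperone list had 6 members lower in females and a median of -0.30. Of those called in males, Calr, Hsp90ab1, Bag3, Pdia6, Dnajb1 and Creld2 did not pass in females. Their female log2 fold changes were -0.02, -0.09, 0.07, -0.12, -0.34 and -0.40. No member of the chaperone list had a step that differed between the sexes by the test of the difference.

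**Figure D4:**
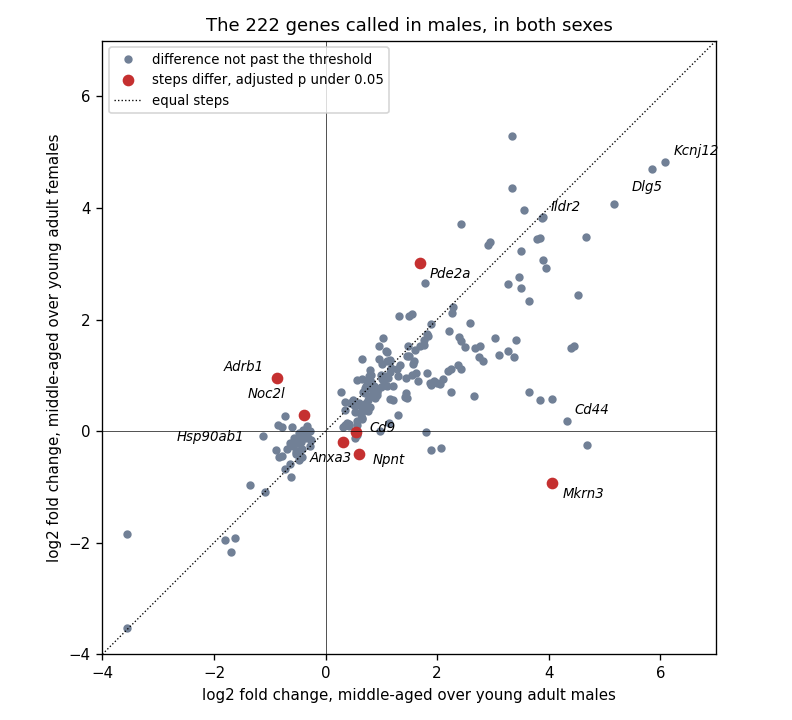
Log2 fold change from young adult to middle age in females (y axis) against males (x axis) for the 222 genes called in males, 1 point per gene, red where the difference between the 2 steps passed at an adjusted p under 0.05. Most points lie in the quadrants of shared sign, and the 7 red genes are Adrb1, Noc2l, Pde2a, Cd9, Anxa3, Npnt and Mkrn3.

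The male age step differed from the female one in 49 of 12552 genes (0.39%), 16 (0.127%) with the male step higher and 33 (0.263%) with it lower. Only 7 of the 49 were among the genes called in males, and 41 were called in females alone. Adrb1, the beta-1 adrenergic receptor that senses noradrenaline, had 799, 1166 and 997 normalized counts in young adult males and 671, 611, 377, 572 and 485 in middle-aged ones. In females it was at 286, 388 and 334 in young adults and 515 to 772 at middle age. The male values fell (-0.87 ± 0.20, limma adjusted p = 0.016) and the female ones rose (0.95 ± 0.20), so that the steps differed by -1.82 ± 0.28 (limma adjusted p = 0.00135), a difference that held in every setting. The fall within males alone was lost without young adult 3 (adjusted p = 0.145) or young adult 4 (0.0535). Pde2a, a phosphodiesterase of cyclic nucleotides, rose in both sexes, in males from 1218, 881 and 774 to between 2340 and 3452 (1.69 ± 0.14, limma adjusted p = 1.5e-07) and by 3.02 in females. The difference of -1.33 ± 0.20 held in every setting (limma adjusted p = 0.00135). Cd9 went the other way: it rose in males, as given above, while females stood at 44007 to 47667 in young adults and 39635 to 50783 at middle age (difference 0.57 ± 0.12, limma adjusted p = 0.033; lost in 9 of the 16 fits without 1 library, up to 0.112 without young adult female 1). Npnt, the matrix protein nephronectin, rose in males by 0.60 ± 0.13 and had -0.40 in females (difference 1.00 ± 0.19, limma adjusted p = 0.013; 0.0571 without young adult female 1). Noc2l, Anxa3 and Mkrn3, named because they complete the 7, had differences of -0.67, 0.51 and 5.00, and that of Mkrn3 was lost in 12 of the 16 fits. Among genes called in females alone, Lag3, the checkpoint receptor, was at 1942, 1568 and 1902 in young adult males and 1504 to 2517 in middle-aged ones (0.07 ± 0.16, limma adjusted p = 0.95), beside 566 to 779 and 2212 to 3055 in females (difference -1.85 ± 0.23, adjusted p = 0.0002).

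**Figure D5:**
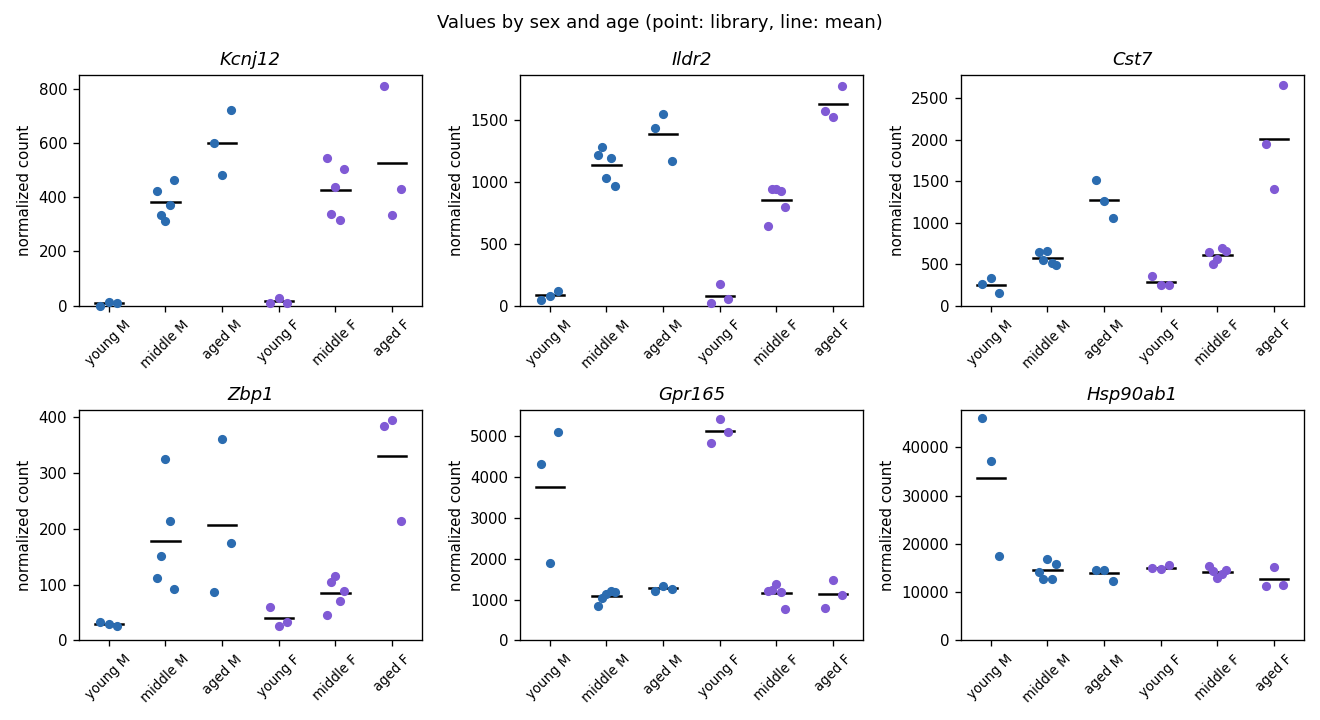
Normalized counts (y axis, linear, from 0) of 6 genes in each of the 22 libraries by sex and age (x axis), points for libraries and lines for group means. Kcnj12, Ildr2 and Gpr165 differ between young adult and middle-aged animals in both sexes, and the high Hsp90ab1 values are those of young adult males 2 and 3.

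At 96 to 104 weeks the male values of several of these genes were as follows, as levels only, since a step to that age would share libraries with the one described. Cst7 was at 1511, 1258 and 1055, Axl at 2124, 2884 and 2282, and H2-Ab1 at 1610, 1840 and 1298, each above every middle-aged male library. Ildr2 was at 1434, 1543 and 1169, which overlap the middle-aged values, and Gpr165 at 1210, 1342 and 1269, from the highest middle-aged value upward and below every young adult one. Calr was at 26915, 26285 and 27028, above all middle-aged males and overlapping the young adult range.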

How the data were processed

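The deposited signal values are reads per gene that the authors scaled with a size factor for each library; 100% of them are whole multiples of the value of 1 read within 0.01 reads (largest distance 1.22e-06), so whole reads were recovered. Per the submitters' processing notes, the build was mm10 and the tools include DESeq2 1.32.0, STAR 2.5.2 and Trim Galore 0.4.3, with no roles stated. Neither the read counter nor the annotation is given in the sources used here. Libraries were grouped by the labelled sex and age, none was left out, and depth was 17.7 to 34.4 M reads over the 22 libraries.

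The test was limma 3.58.1 in R 4.3.3 (two-sided, with a trended prior) on log2(value + 1) for the 12552 of 18072 genes that reached 10 in 3 or more libraries, in 1 model of 6 group means over all 22 libraries. The contrasts were the male age step and its difference from the female step, Benjamini-Hochberg adjusted over all genes at 0.05. The script was tested on simulated data. Fold changes are differences between group means of log2(value + 1). For low genes they can be smaller than the change between the mean normalized counts. They can also be larger, where only some libraries of a group are at or near 0, as in Cyp4f18. Positions are from GENCODE on the same build.

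The comparison and the gene lists were chosen with earlier results of these data known. Named genes were, by rule, up to 15 in each direction with the largest change among called genes with a mean of at least 50 and no overlap, up to 4 members of each list by p, up to 8 in each direction for the difference, and some well-known microglial genes. Members called in the 7 lists described at length are named beyond that rule. Alternatives were pseudocounts of 0.25 and 8, no filter, TMM factors, equal totals, edgeR 4.0.16 and DESeq2 1.42.0 on the recovered reads, only the groups compared, a replicate block, each library left out, 3 libraries of other groups left out, a length and GC trend removed (97.3% of genes matched) and thinning. Fos, Jun, Egr1, Nr4a1 and Dusp1 are not analysed here.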

Additional observations from a re-analysis of the deposited data

Results flagged for a closer look

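In 7 of 103 genes examined, 1 of the 5 middle-aged males stood apart from the other 4 by Dixon's criterion, which by chance marks about 5% of such groups. Middle-aged 3 was the highest for Rsad2 (559, next 155), Ifit3 (1323, next 528), Cybb (745, next 241), S1pr1 (5288, next 3813) and P4ha1 (15839, next 10939), and middle-aged 1 for Gadd45g (389, next 279) and Kcnk12 (652, next 472).

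The age step differed between males and females, by the limma test of the difference, for genes with the male step lower: Lag3 (-1.85, adjusted p = 0.000196), Stab1 (-1.13, 0.000777), Lars2 (-1.60, 0.000777), Adrb1 (-1.82, 0.00135), Pde2a (-1.33, 0.00135), Lrrc25 (-1.14, 0.0123), Nfya (-1.12, 0.0199), Clip2 (-1.16, 0.042) and Noc2l (-0.67, 0.014). It differed with the male step higher for Npnt (1.00, adjusted p = 0.013), Snx29 (1.02, 0.0298), Cd9 (0.57, 0.0333), Anxa3 (0.51, 0.021) and Mkrn3 (5.00, 0.042). Without 1 library, the call of the difference was lost for Clip2 and Mkrn3 in 12 of 16 fits (up to 0.129 and 0.125), for Cd9 in 9 (0.112), for Snx29 in 8 (0.0878), for Anxa3 in 3 (0.0648), for Nfya in 2 (0.076) and for Npnt in 1 (0.0571); these maxima came without young adult female 1, except those of Snx29 and Mkrn3, which came without young adult female 4.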

How the results depend on the processing

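The count of 222 genes in the male comparison stayed within 1.5 times under the other settings except 407 with DESeq2, 103 with only the 2 groups in the fit, and some fits without 1 library (range 122 to 248; 124 without young adult 2, 122 without young adult 3 and 144 without middle-aged 4). The count of 49 for the difference between the sexes was 81 with no filter, 233 with DESeq2, 22 with the replicate block and 24 with a length and GC trend removed, and 22 to 62 without 1 library (22 without young adult female 1, 30 without middle-aged male 4). Replicate numbers gave no pairing: residuals of same-numbered males correlated at 0.102, 0.0101 and 0.00511, and the replicate block left 171 genes in the male comparison, 155 of them also called without it. Among named genes, the differences of Cd9, Clip2, Lrrc25, Mkrn3, Nfya and Noc2l lost their call under the block (0.057 to 0.122). Of 103 genes followed, 79 were called. None of the 79 changed sign, 26 passed in all 20 alternatives, and 47 lost their call in at least 1 fit without 1 library. Of the 24 not called, 2 passed in an alternative, H2-Aa and Il1b. The 3 fits with 2 young adult libraries assume the spread of the other groups, and the cause of each change was not tested. Depth limits Dlg5 and Oas3, with 6 and 0 reads over the young adult males.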

Other observations

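Replication-dependent and linker histone genes had a median log2 fold change of -0.51 from young adult to middle-aged males, with 3 of 23 above 0. None passed the limma test, and 3 had an unadjusted p under 0.05 (11.6% over all genes). In females the median of the same list was -0.05. Cytosolic ribosomal protein genes leaned up in males (median 0.16, 60 of 77 above 0) and down in females (median -0.20), again with no member called in either sex. Neither contrast between medians was tested.

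Complement gene C4b was at 36.3, 80.2 and 45.8 in young adult males and 33.3 to 175 in middle-aged ones (limma adjusted p = 0.59), C3 at 1.69, 19.8 and 71.5 against 3.66 to 46.7 (0.96), and the clock gene Per2 at 153, 59.3 and 158 against 64.9 to 275 (0.81).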
